A study of Homo sapiens with 6 samples.

Results

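HCT116 cells carrying PEA15 shRNA #1 were compared with HCT116 cells carrying a non-silencing hairpin (NS shRNA), with 2 arrays for each line. The comparison took in every probe with a detection p under 0.05 on both arrays of at least 1 of these groups, which gave 19088 of the 47323 probes on the array (40.3%). The detection p compares a probe's brightness with that of negative control beads on the same array. Of these probes, 14928 had a single gene symbol and stood for 11253 genes, and 4160 had none. HCT116 is a human colorectal carcinoma cell line, and every line in the study was grown in the same serum-containing medium and stably expressed a short hairpin RNA, the NS line included. The tested line expressed PEA15 shRNA #1 and the line it was set against expressed the non-silencing hairpin. A further line with PEA15 shRNA #2, also on 2 arrays, entered the estimate of the spread and a direct comparison of the hairpins. The labels number the replicates without saying that they were separate cultures, and do not say whether a line was a clone or a pool, so the p-values reflect no more than the spread among these arrays, part or all of which may be technical.

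A short hairpin RNA is cut by the cell into a small RNA that guides the silencing complex to a matching messenger RNA. PEA15 encodes a small protein with a death effector domain that holds the kinases ERK1 and ERK2 in the cytoplasm and also binds FADD, RSK2 and phospholipase D1. ERK in the nucleus drives early genes such as those of the AP-1 transcription factor, and D-type cyclins with CDK4 and CDK6 carry cells through the G1 phase. The series title places PEA15 in the cell cycle checkpoint that DNA damage sets off and in oncogene-driven transformation.

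The arrays detected between 19441 and 20351 probes each (41.1% to 43.0%), with median signals between 102 and 109. Levels are background-corrected, quantile-normalized log2 signals. Pearson's r over the tested probes was at least 0.994 within a group and between 0.988 and 0.993 across groups. Of the epithelial markers, 7 of 10 were detected on all 4 arrays compared, among them EPCAM, KRT8 and CDH1, while VIL1 was detected on none of them and CDH17 and CEACAM5 on 1 array each. None of 6 endothelial markers, 1 of 8 fibroblast markers (COL1A1), 2 of 7 leukocyte markers (CD14 and LYZ) and 1 of 4 erythroid markers (HBA2) were detected on all 4. The defining markers PTPRC, CD3E, PECAM1 and HBB were detected on none. The log2 of the summed epithelial marker level ran from 13.95 to 13.98 with shRNA #1, against 13.83 to 13.90 with NS shRNA. The same sum ran from 7.64 to 7.76 with shRNA #1, against 7.64 to 7.76 with NS shRNA, for fibroblast markers, from 7.70 to 7.71 against 7.67 to 7.76 for leukocyte markers, from 6.96 to 7.09 against 7.03 to 7.05 for endothelial markers, and from 7.03 to 7.11 against 6.82 to 6.96 for erythroid markers. The erythroid and epithelial sums were thus higher on both shRNA #1 arrays, and their part in the results was not tested. The erythroid sum includes probes at background, so its difference is no measured marker change. HBA2 overlapped, at 6.03 and 5.62 with shRNA #1 against 5.77 and 5.59 with NS shRNA. ALAS2, detected on none of the 4 arrays, stood at 4.71 and 4.79 against 4.33 and 4.41.

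The targeted gene was lower on both shRNA #1 arrays. PEA15 stood at log2 levels of 8.22 and 8.17 with shRNA #1, against 8.97 and 9.15 with NS shRNA, and the groups did not overlap. In RNA of whole cultures, fewer cells with an RNA and less of it per cell cannot be told apart. Its raw signals were 356 and 391 with shRNA #1, against 561 and 633 with NS shRNA. The difference was -0.86 ± 0.12 (log2, SE, n = 2 arrays a group), which corresponds to 0.552 of the NS level (95% confidence interval 0.454 to 0.670). It did not pass the test over all 19088 probes (limma adjusted p = 0.130). It passed under 4 of the 16 alternative settings (adjusted p from 0.00033 to 0.0017), all of which left PEA15 lower.

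3 of the 19088 probes passed an adjusted p of 0.05 (0.0157%), all of them higher with shRNA #1. NT5E encodes CD73, the cell surface enzyme that splits AMP into adenosine and phosphate. Its level was 8.03 and 7.96 with shRNA #1, against 6.87 and 6.85 with NS shRNA, with the groups well apart. NT5E rose by 1.13 ± 0.10, or 2.20-fold (95% confidence interval 1.87 to 2.57, limma adjusted p = 0.0406, n = 2 arrays a group). SCARNA18 belongs to the small Cajal body RNAs, guides for the chemical modification of spliceosomal RNAs. It stood at 6.11 and 6.24 with shRNA #1, against 4.97 and 4.76 with NS shRNA, where it was detected on 1 of the 2 arrays. SCARNA18 rose by 1.30 ± 0.11, or 2.47-fold (95% confidence interval 2.05 to 2.97, limma adjusted p = 0.0406). It entered the test through the shRNA #1 arrays alone, which favours higher values there. Its fold rests on NS levels near background, since the lowest detected level on NS shRNA replicate 2 was 4.81. The last of the calls was a probe that the platform annotation used here does not list, ILMN_1819384, at 8.18 and 8.19 with shRNA #1 against 6.76 and 6.91 with NS shRNA, a rise of 1.35 ± 0.13 (limma adjusted p = 0.0410).

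These calls sat close to the threshold. With any 1 of the 6 arrays left out none of the 3 probes passed: the change of NT5E then lay between 1.10 and 1.17 (adjusted p from 0.108 to 0.453), that of SCARNA18 between 1.20 and 1.41 (0.108 to 0.453) and that of ILMN_1819384 between 1.27 and 1.43 (0.108 to 0.453). The size of the change also depended on the background step. With quantile normalization alone it was 0.77 for NT5E, 0.48 for SCARNA18 and 0.93 for ILMN_1819384, and all 3 passed.

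**Figure D1:**
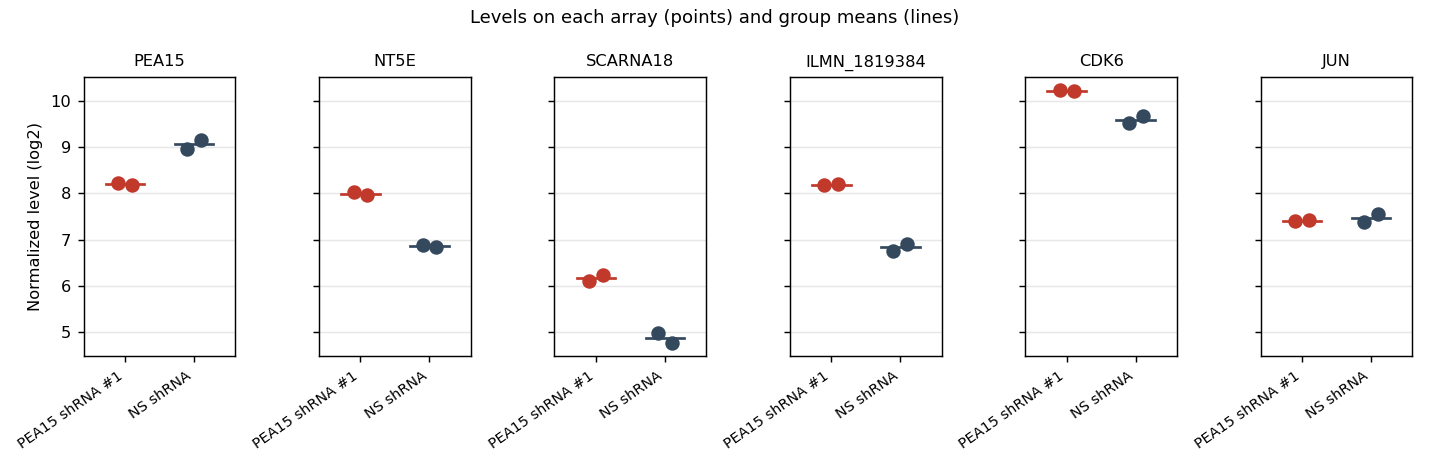
Normalized log2 level of PEA15, the 3 probes that passed the test, CDK6 and JUN on each array (points), with the group mean as a line; shRNA #1 is on the left of each panel and NS shRNA on the right. PEA15 lay between 8.17 and 8.22 with shRNA #1 and between 8.97 and 9.15 with NS shRNA, and the JUN arrays of the groups overlapped.

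The sequence upstream of NT5E is shown because NT5E was the protein-coding gene that passed. The window holds the 250 bases before the RefSeq start site (GRCh38.p14, chr6:85449833-85450082, plus strand), written 5′ to 3′, with the capitals marking matches to the motifs searched.

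NT5E upstream: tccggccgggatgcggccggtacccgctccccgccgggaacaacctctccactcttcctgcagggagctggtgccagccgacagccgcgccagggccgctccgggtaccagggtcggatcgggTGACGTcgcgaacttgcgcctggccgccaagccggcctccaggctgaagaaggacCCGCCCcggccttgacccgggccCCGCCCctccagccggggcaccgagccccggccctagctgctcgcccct

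Both strands were searched for the GC box GGGCGG, the AP-1 motif TGANTCA and the CRE core TGACGT, in which N is any base. The GC box matched at 2 places, both on the minus strand, starting 72 and 49 bases before the start site, and the CRE core at 1 place on the plus strand, 127 bases before it; none of the matches overlap. The AP-1 letters do not occur in this window. Among 35116 upstream windows of the same length in the RefSeq table, 42.6% hold a GC box, 7.10% a CRE core and 6.57% an AP-1 motif.

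CDK6 and JUN stand here for the G1 kinases and the AP-1 factor. CDK6 stood at 10.24 and 10.20 with shRNA #1, against 9.51 and 9.68 with NS shRNA, and the groups did not overlap. The difference of 0.62 ± 0.10, or 1.54-fold (95% confidence interval 1.30 to 1.82), did not pass (limma adjusted p = 0.161), and did under 4 of 16 alternative settings. JUN stood at 7.40 and 7.43 with shRNA #1, against 7.38 and 7.55 with NS shRNA. Its arrays overlapped, with a difference of -0.05 ± 0.11 (limma adjusted p = 0.901), or a ratio between 0.806 and 1.16 by its 95% confidence interval.

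Across the whole array the number of probes called depended on the processing. Beside the 3 probes here, 75 to 158 passed under 4 alternative settings, namely quantile normalization alone, the submitters' processed values, an offset of 50 and a trended prior, and 0 passed with any 1 array left out. The median change was -0.0015, its 1st and 99th percentiles at -0.50 and 0.50, and the median SE was 0.12. The median probe differed by 0.13 between the shRNA #1 arrays and by 0.12 between the NS arrays. A 1.5-fold difference was exceeded upward by 92 probes and downward by 75, and a 2-fold difference by 9 and 3. An unadjusted p under 0.05 was reached by 2289 probes (12%), 1165 higher (6.10%) and 1124 lower (5.89%), where 954 are expected at this threshold. Both shRNA #1 arrays lay above both NS arrays for 4041 probes (21.2%) and below them for 4116 (21.6%).

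**Figure D2:**
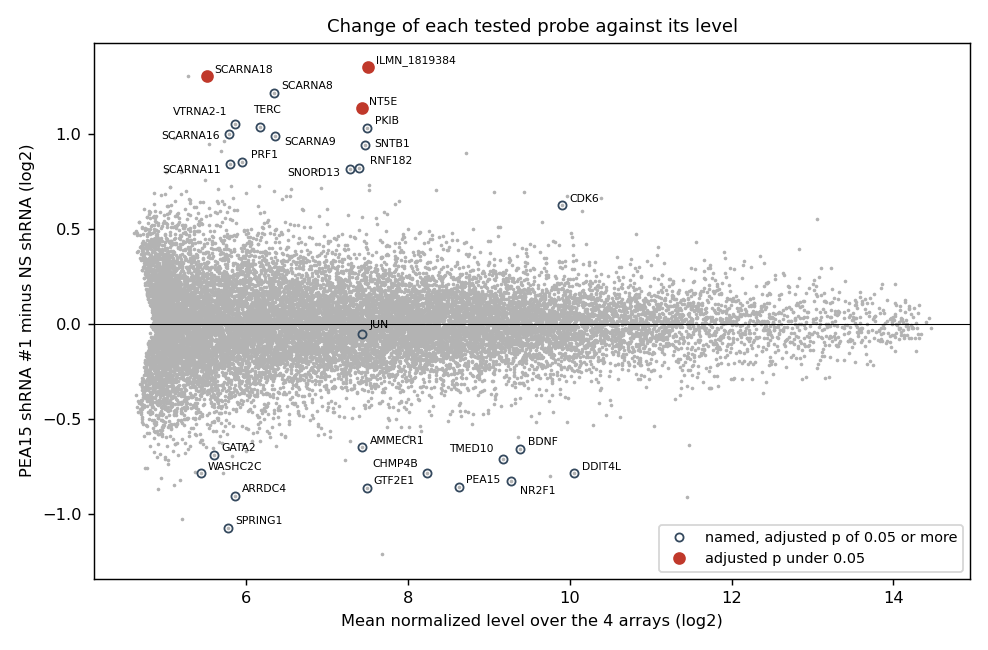
Log2 difference, PEA15 shRNA #1 minus NS shRNA, of each tested probe (grey) against its mean log2 level over the 4 arrays; red points are the 3 probes with an adjusted p under 0.05 and open circles the other named genes. The scatter is widest among dim probes, and PEA15 and CDK6 lie outside the bulk of probes of their level.

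Genes detected on all 4 arrays, with the groups apart and an unadjusted p under 0.01, were ranked by their difference and the first 12 on each side taken. Beside NT5E, those on the higher side were short non-coding RNAs and protein-coding genes, none of which passed. PKIB, an inhibitor of protein kinase A, stood at 7.91 and 8.12 with shRNA #1, against 7.08 and 6.89 with NS shRNA, a difference of 1.03 ± 0.14 (limma adjusted p = 0.130). SNTB1, a syntrophin that links membrane proteins to the dystrophin complex, stood at 7.90 and 7.99 with shRNA #1, against 6.83 and 7.18 with NS shRNA (0.94). RNF182, a RING-type ubiquitin ligase, stood at 7.65 and 7.96 with shRNA #1, against 6.97 and 6.99 with NS shRNA (0.82). PRF1, which encodes perforin, the pore-forming protein of cytotoxic lymphocytes, was dim at 6.31 and 6.45 with shRNA #1, against 5.45 and 5.60 with NS shRNA (0.85). In PKIB, SNTB1, RNF182 and PRF1 both shRNA #1 arrays lay above both NS arrays. Of the leukocyte markers, PTPRC and CD3E were detected on none of the 4 arrays, and CD14 and LYZ on all 4. FCGR3A was detected on both shRNA #1 arrays and neither NS array, at 5.18 and 4.85 against 4.74 and 4.77. MS4A1 was detected on 1 shRNA #1 array and both NS arrays, and CD79A on 1 array of each group. The source of the PRF1 signal was not tested.

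On the lower side the 12 genes were all protein-coding, PEA15 among them. GTF2E1, a subunit of the general transcription factor TFIIE, stood at 7.07 and 7.04 with shRNA #1, against 7.94 and 7.91 with NS shRNA, a difference of -0.86 ± 0.10 that had the smallest p among them (limma adjusted p = 0.0893). SPRING1, needed for activation of the sterol-sensing SREBP factors, was dim at 5.08 and 5.39 with shRNA #1, against 6.55 and 6.07 with NS shRNA (-1.07). ARRDC4, an arrestin-like regulator of glucose uptake, stood at 5.14 and 5.67 with shRNA #1, against 6.33 and 6.29 with NS shRNA (-0.91), and its other probe differed by -0.55. In all 3 genes the groups were apart.

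NR2F1, GATA2, BDNF and DDIT4L were also among these 12 genes, and none passed. NR2F1, an orphan nuclear receptor, stood at 8.89 and 8.83 with shRNA #1, against 9.71 and 9.66 with NS shRNA (-0.83). GATA2, a zinc finger transcription factor, stood at 5.52 and 4.99 with shRNA #1, against 5.94 and 5.95 with NS shRNA (-0.69). BDNF, a secreted neurotrophin, stood at 9.06 and 9.07 with shRNA #1, against 9.79 and 9.65 with NS shRNA (-0.66). Its further probes differed by -0.49 and -0.27. DDIT4L, an inhibitor of mTORC1 signalling, stood at 9.61 and 9.72 with shRNA #1, against 10.51 and 10.39 with NS shRNA (-0.79). The groups were apart in all 4 genes on the probes given first, and the arrays of 1 further BDNF probe overlapped.

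The others of the 12 were CHMP4B, TMED10, WASHC2C and AMMECR1, and none passed. CHMP4B, a subunit of the membrane-cutting ESCRT-III complex, stood at 7.86 and 7.82 with shRNA #1, against 8.64 and 8.60 with NS shRNA (-0.78). TMED10, a cargo receptor of vesicles between the endoplasmic reticulum and the Golgi, stood at 8.78 and 8.86 with shRNA #1, against 9.69 and 9.37 with NS shRNA (-0.71). WASHC2C, a subunit of the WASH complex on endosomes, stood at 4.87 and 5.22 with shRNA #1, against 6.00 and 5.66 with NS shRNA (-0.79), and its other probe differed by -0.15 with arrays that overlapped. AMMECR1 stood at 6.98 and 7.24 with shRNA #1, against 7.74 and 7.78 with NS shRNA (-0.65), and another probe differed by -0.58. Its dimmest probe, not detected with shRNA #1, stood at 4.502 and 4.44 with shRNA #1, against 4.88 and 5.04 with NS shRNA.

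**Figure D3:**
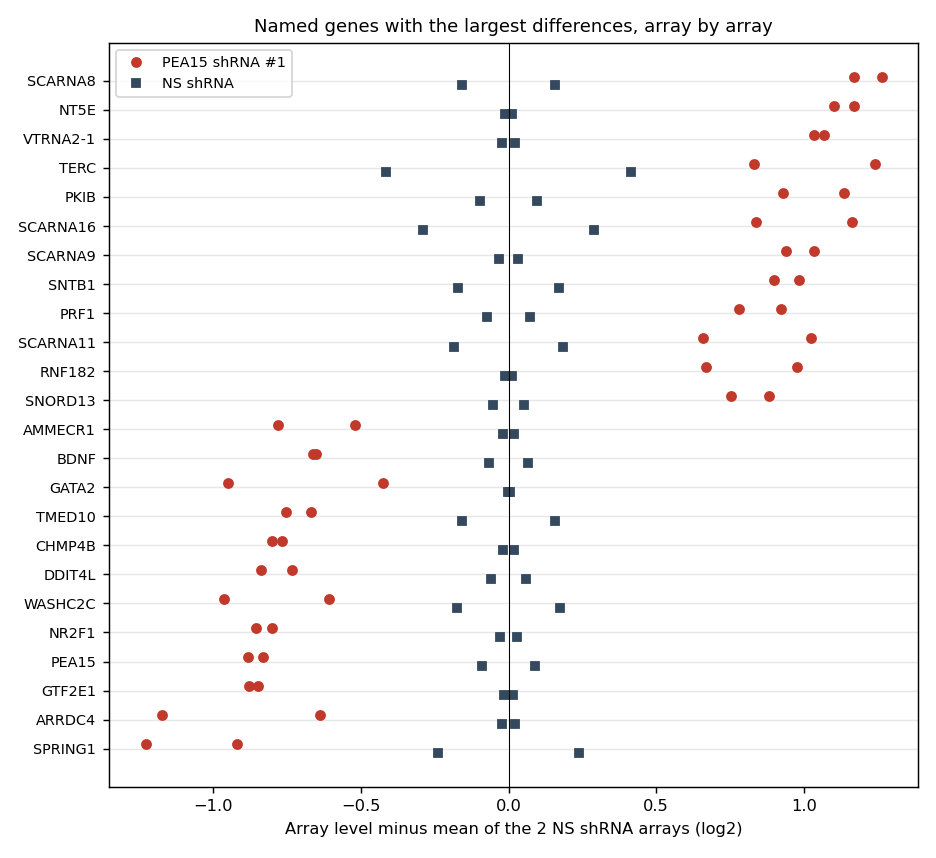
Level of each array minus the mean of the 2 NS shRNA arrays (log2) for the genes with the largest differences among those detected on all 4 arrays; red circles are shRNA #1 arrays and dark squares, drawn just under them, NS shRNA arrays. The arrays of the groups are apart in every gene shown, as the choice of these genes required, and the NS arrays lie furthest from each other in TERC.

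Some genes were detected on both arrays of 1 group and on neither of the other, so that only a lower bound of the ratio can be given. The bound sets the mean of the brighter group against the lowest level of a detected probe on each array of the other, or the probe's own level where that is higher. There were 106 such genes with shRNA #1 and 115 with NS shRNA. WFDC3, a protein with a protease inhibitor domain, was at least 1.51-fold higher with shRNA #1, and CYP27A1, the mitochondrial sterol 27-hydroxylase, also at least 1.51-fold. SNORA23 was at least 1.505-fold higher, TGFBI, a secreted matrix protein induced by TGF-beta, at least 1.48-fold and LOXHD1 at least 1.42-fold. EDAR, the receptor of ectodysplasin, was not detected with shRNA #1 and was at least 1.49-fold lower. The bounds of the probe named for MIR645, of LOC105370068, of REM2 and of FAM117A were at least 1.43-fold, 1.39-fold, 1.35-fold and 1.34-fold lower with shRNA #1. All of these lie near background, and their adjusted p ranged from 0.130 for EDAR to 0.378 for LOXHD1, so that none passed.

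The gene lists and their members were chosen with earlier results of these data known, so their counts and medians are a description. Small Cajal body RNAs were the gene list with the largest shift. They sit in the Cajal body of the nucleus and guide 2′-O-methylation and pseudouridylation of spliceosomal RNAs. Of 19 on the array 10 were tested and 1 of them passed (SCARNA18), where 0.0178% of all genes passed. Further, in 8 both shRNA #1 arrays were above both NS arrays, and in 0 both were below. Over all 11253 genes 20.8% were apart on the higher side and 21.7% on the lower side. The list's median difference was 0.82, beside -0.0029 over all genes, with quartiles of -0.11 and 0.10. SCARNA18 and SCARNA14, each detected on 1 of the 2 NS arrays, entered the test through the shRNA #1 arrays alone, which favours higher values there. Among the 8 detected on all 4 arrays 6 were apart on the higher side and 0 on the lower side, with a median of 0.67.

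Among the members, SCARNA8 stood at 6.91 and 7.004 with shRNA #1, against 5.90 and 5.58 with NS shRNA, a difference of 1.22 ± 0.13 (limma adjusted p = 0.0755). SCARNA16 stood at 6.45 and 6.13 with shRNA #1, against 5.00 and 5.58 with NS shRNA (1.00). SCARNA9 stood at 6.90 and 6.801 with shRNA #1, against 5.89 and 5.83 with NS shRNA (0.99). The groups were apart in these 3 RNAs, and none of them passed. SCARNA11 differed by 0.84, SCARNA14 by 0.80, SCARNA22 by 0.50 and SCARNA13 by 0.49, while SCARNA12 (0.03) and SCARNA10 (-0.04) had arrays that overlapped. The list's median lay between 0.36 and 1.03 over the alternative settings, with 0.36 both under quantile normalization alone and with the submitters' processed values. Relative to the mean of the NS arrays, its median was 1.03 on shRNA #1 replicate 1 and 0.65 on replicate 2, against -0.012 and 0.012 on the NS arrays. On the shRNA #2 arrays the list's median was 0.52 and 0.55. In the direct comparison of the hairpins 0 of its 10 tested members passed.

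The other short RNA classes were grouped by RefSeq biotype and symbol after the values were seen, and are likewise given as a description. TERC, the RNA template of telomerase, which shares a Cajal body signal with the class above, stood at 6.90 and 6.49 with shRNA #1, against 6.07 and 5.25 with NS shRNA (1.03 ± 0.26, limma adjusted p = 0.249). VTRNA2-1, a short non-coding RNA related to the vault RNAs, stood at 6.37 and 6.405 with shRNA #1, against 5.32 and 5.36 with NS shRNA (1.05). VTRNA1-1 was detected on neither NS array and was at least 1.05-fold higher with shRNA #1. SNORD13, a C/D RNA that takes part in acetylation of 18S ribosomal RNA, stood at 7.75 and 7.62 with shRNA #1, against 6.82 and 6.92 with NS shRNA (0.82). The groups were apart in each of these RNAs, although the NS arrays of TERC lay far from each other.

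Medians of the remaining short RNA classes were smaller and depended on the processing. For the counts below, 20.8% of all genes were apart on the higher side and 21.7% on the lower side. Of 8 spliceosomal small nuclear RNAs 5 were apart on the higher side and 1 on the lower side, with a median of 0.28 that fell to 0.12 with quantile normalization alone and 0.17 without NS shRNA replicate 1. RNU11 of the minor spliceosome was the one below (-0.24) and RNU6-1 differed by 0.12. Among those above were RNU1-3, RNVU1-18 and RNVU1-7 of the related U1 genes (0.41, 0.36 and 0.33), while the arrays of RNU1-1 overlapped (-0.0012). Of 4 Y RNAs 2 were apart on the higher side (median 0.29). Among 59 H/ACA small nucleolar RNAs, which guide pseudouridylation of ribosomal RNA, 23 were apart on the higher side (39.0%) and 5 on the lower side, with a median of 0.096 that fell to 0.041 with quantile normalization alone. Of the 50 detected on all 4 arrays 18 were higher and 4 lower. Among 65 C/D small nucleolar RNAs, which guide its methylation, 14 were higher and 12 lower (median 0.017, which turned to -0.033 without NS shRNA replicate 2). The probes named for 29 microRNA genes had a median of -0.14, with 5 higher and 10 lower, but the median turned to 0.011 without NS shRNA replicate 1. In the 15 of them detected on all 4 arrays it was -0.018, with 2 higher and 4 lower. Of 17 tested genes for proteins of the Cajal body and of small ribonucleoprotein assembly 4 were apart on the higher side and 3 on the lower side, with a median of 0.013 and none past the test. SMN1, whose protein assembles spliceosomal particles, differed most (0.33), and TGS1, SNU13 and DKC1 differed by -0.20, -0.17 and 0.16. Other probes of TGS1 and SNU13 differed by -0.014 and by -0.057 and 0.17.

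**Figure D4:**
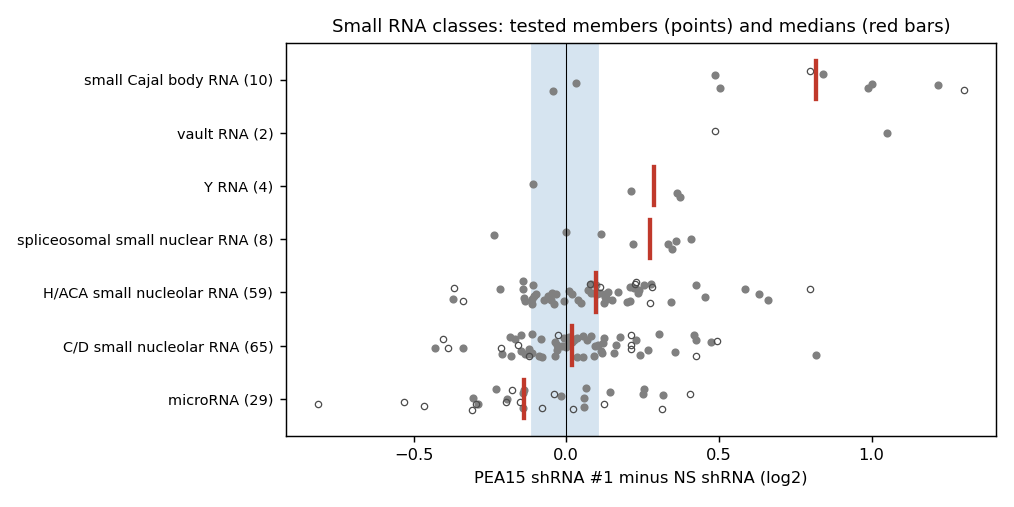
Log2 difference, PEA15 shRNA #1 minus NS shRNA, of each tested gene of the short RNA classes (points) and the median of each class of over 2 genes (red bar); open points were not detected on all 4 arrays, so that the placing of those at background is no measured change, and the blue band spans the lower to the upper quartile of all tested genes and class sizes stand in brackets. The medians of the small Cajal body RNAs (0.82), Y RNAs (0.29) and spliceosomal RNAs (0.28) lie to the right of the band, and the C/D small nucleolar RNAs (0.017) are centred in it.

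Of the PEA15 protein's partners and the death effector domain proteins, 16 of 18 were tested and none passed. In 5 the shRNA #1 arrays lay above the NS arrays and in 4 below, of which 1 is PEA15 itself, with a median of 0.0087. The shares of all genes were 20.8% above and 21.7% below. RPS6KA3, the kinase RSK2, stood at 7.44 and 7.63 with shRNA #1, against 7.15 and 7.23 with NS shRNA (0.35), and its other probes differed by 0.25 and -0.18. CAMK2D, of the calcium-dependent kinase family that phosphorylates PEA15, differed by 0.26 on its brightest probe and by 0.69 on another. PLD1, the phospholipase that PEA15 binds, differed by 0.22.

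Genes that respond to ERK signalling were more often higher than lower with shRNA #1. Of 27 tested outputs of the pathway none passed, 15 were apart on the higher side and 3 on the lower side, and the median was 0.18. Over all genes 20.8% were apart on the higher side and 21.7% on the lower side. With shRNA #2 against NS shRNA the list's median was 0.032. DUSP7, a phosphatase that switches ERK off, stood at 5.71 and 5.49 with shRNA #1, against 4.98 and 5.25 with NS shRNA (0.48). TGFA, a ligand of the EGF receptor, stood at 8.24 and 8.12 with shRNA #1, against 7.77 and 7.73 with NS shRNA (0.43), and its other probe differed by 0.46. EPHA2, a receptor tyrosine kinase, stood at 8.48 and 8.35 with shRNA #1, against 8.06 and 7.92 with NS shRNA (0.42). FOSL1, an AP-1 subunit, stood at 8.28 and 8.23 with shRNA #1, against 7.97 and 7.79 with NS shRNA (0.38). The groups were apart in these 4 genes, and their adjusted p lay between 0.242 and 0.298. Over the alternative settings the list's median lay between 0.15 and 0.21.

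Of 12 AP-1 subunits none passed, 4 were apart on the higher side and 2 on the lower side (median 0.11, and 0.023 without shRNA #1 replicate 1 or 0.037 without NS shRNA replicate 1). Beside FOSL1, ATF3 differed by 0.30, MAFG by 0.15 and ATF2 by -0.13. Of 28 cyclins, CDKs and CDK inhibitors none passed, 7 were apart on the higher side and 4 on the lower side, and the median was 0.015. All genes together had 20.8% apart on the higher side and 21.7% on the lower side. CCND1, or cyclin D1, the partner of CDK6, stood at 12.38 and 12.39 with shRNA #1, against 12.07 and 12.10 with NS shRNA (0.30). CDKN1A, the p21 inhibitor, stood at 12.17 and 12.02 with shRNA #1, against 11.74 and 11.75 with NS shRNA (0.35), and a dimmer probe of the same gene differed by 0.95. RBL2, the pocket protein p130, differed by -0.27. In CCND1, CDKN1A and RBL2 the groups were apart.

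The lists for the cell cycle and the DNA damage checkpoint were centred near 0, with medians between -0.023 and 0.066 when single arrays were left out. Beside the counts below, 20.8% of all genes were apart on the higher side and 21.7% on the lower side. Of 26 checkpoint and repair genes none passed, 3 were apart on the higher side and 5 on the lower side (median -0.0043). ATR, the kinase that senses stalled replication, was detected with shRNA #1 alone, at 4.97 and 4.83 against 4.61 and 4.64 with NS shRNA, and PALB2 and XRCC5 differed by -0.19 and -0.18. Of 31 genes of the G1/S transition and DNA replication 9 were higher and 8 lower (median 0.023), with GINS1 at 0.54 and the replicative helicase subunit MCM6 at -0.33. Of 32 G2/M and mitosis genes 10 were higher and 6 lower (median 0.034), with the mitotic kinases PLK1 and AURKB at 0.29 and 0.24. No gene of these lists passed.

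Targets of p53 were more often higher than lower. Of 25 tested 13 were apart on the higher side and 1 on the lower side, with a median of 0.12 and no gene past the test. Among all genes 20.8% were apart on the higher side and 21.7% on the lower side. The list's median was 0.070 without shRNA #1 replicate 1, which is inside the quartiles of all genes. It was 0.089 both with quantile normalization alone and with the submitters' processed values, and 0.11 in the 24 detected on all 4 arrays. With shRNA #2 against the same NS arrays the list's median was 0.21. DDB2, a damage sensor of nucleotide excision repair, stood at 6.996 and 6.97 with shRNA #1, against 6.62 and 6.58 with NS shRNA (0.38). TIGAR, a phosphatase that slows glycolysis, stood at 8.39 on both shRNA #1 arrays, against 8.02 and 8.13 with NS shRNA (0.32), and SESN2, a stress-induced inhibitor of mTORC1, differed by 0.38. Among 25 apoptosis regulators 8 were higher and 3 lower (median 0.020). BCL2, which blocks release of cytochrome c, stood at 5.70 and 5.89 with shRNA #1, against 5.29 and 5.32 with NS shRNA (0.49), while a dimmer probe, not detected with shRNA #1, stood at 4.78 and 4.76 with shRNA #1, against 4.84 and 5.08 with NS shRNA. CYCS, or cytochrome c, differed by -0.24 and the death receptor TNFRSF10A by 0.26.

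Genes of mesenchymal cells and invasion were also more often higher than lower. Of 26 listed 14 were tested, 11 were apart on the higher side and 2 on the lower side, with a median of 0.24 that fell to 0.14 both with quantile normalization alone and with the submitters' processed values. The shares of all genes apart on these sides were 20.8% and 21.7%. TGFBI and MMP9 entered through the shRNA #1 arrays alone. Among the 12 detected on all 4 arrays 9 were higher and 2 lower, with a median of 0.23. With shRNA #2 against the same NS arrays the list's median was 0.14. MMP7, or matrilysin, a protease of colorectal tumours, stood at 5.71 and 5.72 with shRNA #1, against 5.13 and 5.19 with NS shRNA (0.55). Its other probe, detected with shRNA #1 alone, stood at 5.70 and 6.16 with shRNA #1, against 4.60 and 4.66 with NS shRNA. CCN2 and CCN1, secreted matrix-associated proteins, differed by 0.46 and 0.31, but the second probe of CCN2 differed by 0.0018. None passed. Of 18 integrins and focal adhesion genes 8 were higher and 3 lower (median 0.075, and 0.14 without NS shRNA replicate 2). With shRNA #2 against NS shRNA this list's median was 0.17. ITGA3 and ITGA6 both differed by 0.38, with a further ITGA3 probe at 0.044. ITGB4, the partner of ITGA6 in hemidesmosomes, differed by 0.28 and PARVA by -0.22.

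**Figure D5:**
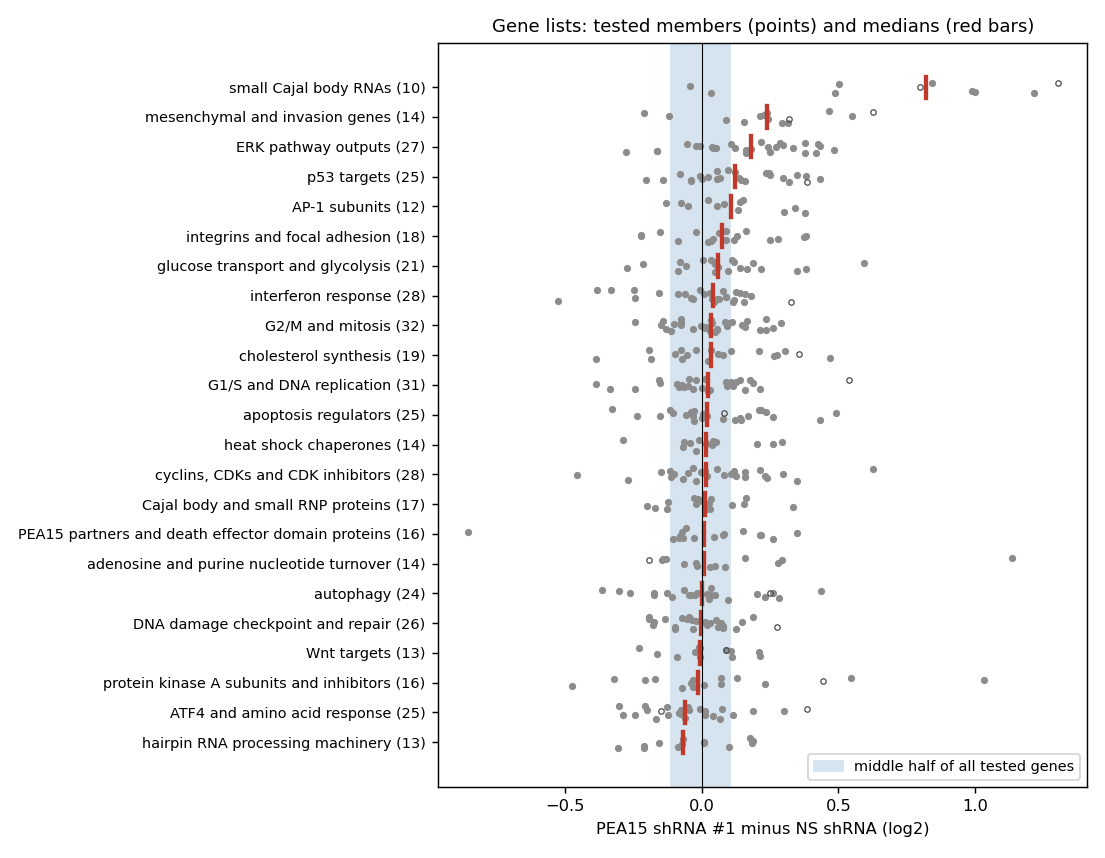
Log2 difference, PEA15 shRNA #1 minus NS shRNA, of the tested members of each gene list (points) and the list's median (red bar), with the number tested in brackets; open points were not detected on all 4 arrays, and the blue band spans the lower to the upper quartile of all tested genes. The small Cajal body RNAs (median 0.82), mesenchymal and invasion genes (0.24), ERK pathway outputs (0.18) and p53 targets (0.12, but 0.070 without shRNA #1 replicate 1) have medians above the band, and the rest lie within it or at its edge.

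Of 14 tested genes of adenosine and purine nucleotide turnover 1 passed, NT5E. Apart on the higher side were 4 and on the lower side 2, beside 20.8% and 21.7% of all genes, and the list's median was 0.0060. SLC29A1, a nucleoside transporter, and ADORA1, an adenosine receptor, differed by 0.28 and 0.30, and AK4, an adenylate kinase of mitochondria, by 0.16. Among 16 genes for subunits and inhibitors of protein kinase A and its partners, 4 were higher and 3 lower (median -0.012). PRKAR1B, a regulatory subunit, differed by 0.55, and PDE4B, which degrades cyclic AMP, by -0.47 on its brighter probe and -0.39 on the other. PRKACA, the catalytic subunit, was detected with shRNA #1 alone, at 5.19 and 5.02 against 4.68 and 4.65 with NS shRNA. Beside NT5E no gene of either list passed.

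Of 21 genes of glucose transport and glycolysis 9 were higher and 3 lower (median 0.060), and none passed. The shares of all genes apart were 20.8% on the higher side and 21.7% on the lower side. SLC2A1, the glucose transporter GLUT1, stood at 10.38 and 10.52 with shRNA #1, against 9.92 and 9.79 with NS shRNA (0.60), with the groups apart. The aldolase ALDOA differed by 0.38 on its brightest probe and by 0.055 on the other, whose arrays overlapped. ALDOC differed by -0.27 and SLC2A3 by 0.35. Of 19 genes of cholesterol synthesis 7 were higher and 3 lower (median 0.033). CYP51A1 differed by 0.47 and SQLE by -0.39, both enzymes of the sterol part of the pathway, and SREBF2 and MVK by 0.36 and 0.28.

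The machinery that processes hairpins and the interferon response, which double-stranded RNA can set off, were listed because both lines carry a hairpin. Of 13 processing genes 3 were higher and 5 lower (median -0.068, which turned to 0.029 without NS shRNA replicate 2). Across all genes 20.8% were apart on the higher side and 21.7% on the lower side. AGO2, which cuts the target RNA, differed by -0.21, DGCR8 by 0.19 and DICER1 by 0.18, with another DICER1 probe at -0.20. Of 28 interferon response genes 3 were apart on the higher side and 7 on the lower side, and 17 differed by more than 0 (median 0.040). The members ran from -0.53 to 0.33, with IFITM1 at -0.53, XAF1 at -0.39 and BST2 at -0.25. IFI44L was on the other side, between 0.10 and 0.55 over the alternative settings. Of the 25 tested genes in the list of ATF4 targets and the response to amino acid shortage, 6 were apart on the higher side and 8 on the lower side (median -0.063, and 0.028 without shRNA #1 replicate 2). Its members ran from -0.30 to 0.38, with 9 of 25 above 0. An unadjusted limma p under 0.05 was reached by 2 members on each side. PHGDH, an enzyme of serine synthesis, differed by -0.30. Counts of autophagy genes (7 higher and 5 lower of 24), Wnt targets (2 and 3 of 13) and heat shock chaperones (3 and 1 of 14) were likewise spread over both sides. No gene of these lists passed.

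The hairpins were set against each other in the same fit. The NS levels do not enter the difference itself, but the NS arrays enter the estimate of its spread and the choice of its probes. Probes had to be detected with shRNA #1 or NS shRNA. A further 693, detected on both shRNA #2 arrays, were left out, which disfavours calls on the lower side. The contrast was passed by 594 probes (3.11%), of which 255 were higher with shRNA #1 (1.34%) and 339 lower (1.78%). With any 1 of the 6 arrays left out the count was between 31 and 275. The unlisted probe ILMN_1819384, at 7.14 and 7.42 with shRNA #2, was 0.91 ± 0.13 higher with shRNA #1 (limma adjusted p = 0.0139). NT5E stood at 8.03 and 7.96 with shRNA #1, against 7.50 and 7.44 with shRNA #2, a difference of 0.53 ± 0.10 that passed (limma adjusted p = 0.0363). SCARNA18 stood at 5.97 and 5.94 with shRNA #2, and its difference of 0.22 ± 0.11 between hairpins did not pass (limma adjusted p = 0.310, 95% confidence interval -0.047 to 0.48). PEA15 stood at 7.71 and 7.93 with shRNA #2, 0.38 ± 0.12 below shRNA #1 (limma adjusted p = 0.126). Set against the same NS arrays, shRNA #2 differed by 0.61 in NT5E (limma adjusted p = 0.0322) and by 1.08 in SCARNA18 (0.00846). The differences of ILMN_1819384 and PEA15 in that contrast were 0.44 (limma adjusted p = 0.133) and -1.23 (0.00674).

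Among the named genes with large differences from NS shRNA, several did differ between the hairpins. PKIB was 1.45 higher with shRNA #1 than with shRNA #2, where it stood at 6.42 and 6.73, and SNTB1, RNF182 and VTRNA2-1 were 0.98, 0.87 and 0.84 higher (adjusted p from 0.00601 to 0.0275). SPRING1, NR2F1, CHMP4B, BDNF and GTF2E1 were lower with shRNA #1 than with shRNA #2, with differences of -1.15, -0.82, -0.65, -0.58 and -0.57 (adjusted p from 0.0124 to 0.0288). DDIT4L stood at 9.75 and 9.62 with shRNA #2, and its difference between hairpins was -0.02 ± 0.11 (95% confidence interval -0.27 to 0.24, limma adjusted p = 0.947). Against the NS arrays, which both comparisons share, DDIT4L differed by -0.79 with shRNA #1 and -0.77 with shRNA #2, and NR2F1 by -0.83 and -0.0045.

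The genes furthest apart between the hairpins stood at varied distances from the NS line with shRNA #1. KRT80, an epithelial keratin, stood at 6.97 and 6.84 with shRNA #1, against 8.94 and 8.91 with shRNA #2. TRIB3, a stress-induced pseudokinase, stood at 8.92 and 8.85 with shRNA #1, against 10.72 and 10.71 with shRNA #2, and CEMIP, which takes part in breakdown of hyaluronan, at 8.70 and 8.83 against 6.94 and 6.94. With shRNA #1 these 3 genes differed from NS shRNA by 0.17, -0.0070 and 0.022. ADAM19, a membrane metalloprotease, was 2.00 higher with shRNA #1 than with shRNA #2 and stood at 10.76 and 10.67, against 10.13 and 9.97 with NS shRNA (0.66). FGF9 and HAS3, a growth factor and a hyaluronan synthase, were 1.61 and 1.29 higher than with shRNA #2, and PCK2, TNFSF18 and ASNS, a mitochondrial carboxykinase, a TNF family ligand and asparagine synthetase, differed by -2.14, -1.89 and -1.88. Of the 25 genes listed for ATF4, 21 passed this contrast as lower with shRNA #1 than with shRNA #2 and 0 passed as higher. Relative to the NS mean, this list had medians of 0.028 and -0.11 in the 2 arrays of shRNA #1, against 0.87 and 0.86 in those of shRNA #2.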

How the data were processed

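Total RNA of the HCT116 lines was purified, labelled with biotin and run on Illumina arrays, as the labels' protocols state. The deposited table of unnormalized values gives each probe's intensity on a linear scale and its detection p-value on each array. The deposited log2 values come from lumi, whose version is not named, per the submitters' processing notes; their column medians are 6.75 and they rank probes as the intensities do. The sources used here name no background step for them. Intensities were corrected and normalized with neqc (limma 3.58.1, R 4.3.3), which infers the background from the detection p-values, adds an offset of 16 and applies quantile normalization and log2. The offset understates folds of dim probes, and the number of arrays limits the precision.

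One limma model with a mean for each of the 3 groups was fitted to all 6 arrays (3 residual and 4.73 prior degrees of freedom), with two-sided tests and Benjamini-Hochberg adjustment over the 19088 probes at 0.05. Gene names came from the platform annotation, in which 30113 probes have 1 symbol, 8 several and 17202 are not listed; 30074 matched RefSeq (GRCh38.p14), and 0 symbols were updated. A gene was represented by its brightest tested probe (mean of the 6 arrays). The script was tested on simulated data.

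Named genes were PEA15, CDK6 and JUN, every probe that passed, the 12 largest differences each way among genes detected on all 4 arrays with groups apart and an unadjusted p under 0.01, up to 5 each way detected in 1 group only, up to 5 each way between hairpins, and up to 4 of smallest p in each list described, with further partners of PEA15. The small RNAs outside the list of small Cajal body RNAs, the second probes and the further members of that list were named with their values in view. The list of small Cajal body RNAs was headed as also holding small nucleolar RNAs and has none. The members and lists were chosen with earlier results of these data known. The labels do not say whether replicate numbers pair the arrays, and the main model did not pair them. Differences between the replicates of a group correlated across probes at -0.015 for shRNA #1 with NS shRNA. The values were 0.091 for shRNA #1 with shRNA #2 and 0.049 for shRNA #2 with NS shRNA.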

Additional observations from a re-analysis of the deposited data

Results flagged for a closer look

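Genes named above whose level differed between PEA15 shRNA #1 and PEA15 shRNA #2 by the direct test (limma adjusted p under 0.05, 2 arrays a group) are listed here by their log2 difference, shRNA #1 minus shRNA #2. Higher with shRNA #1 were ADAM19 (2.00), CEMIP (1.82), FGF9 (1.61), PKIB (1.45) and HAS3 (1.29). They were followed by SNTB1 (0.98), ILMN_1819384 (0.91), ADORA1 (0.90), RNF182 (0.87), VTRNA2-1 (0.84) and MMP7 (0.83). Smaller differences on that side were those of DUSP7 (0.76), GINS1 (0.75), BCL2 (0.72), TGFBI (0.58), TIGAR (0.57) and NT5E (0.53). Lower with shRNA #1 were PCK2 (-2.14), KRT80 (-2.02), TNFSF18 (-1.89), ASNS (-1.88), TRIB3 (-1.82), ATF3 (-1.50) and SPRING1 (-1.15). SESN2 (-0.95), SLC2A3 (-0.94), PHGDH (-0.86), NR2F1 (-0.82), ALDOC (-0.81) and IFITM1 (-0.77) came next. CHMP4B (-0.65), SQLE (-0.64), BDNF (-0.58) and GTF2E1 (-0.57) differed least on that side. With 2 arrays a group no single array could be compared with the spread of its own group.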

How the results depend on the processing

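The count of changed probes against NS shRNA, 3 here, was 142 (80 higher, 62 lower) with quantile normalization alone, 158 (84 and 74) with the submitters' processed values, 75 (43 and 32) with an offset of 50, 138 (73 and 65) with a trended prior and 5 (4 and 1) with a detection p under 0.01. Each of these held the 3 probes. It was 0 in limma with only the 4 arrays compared, with no detection filter and with the replicate block, where unadjusted p under 0.05 was reached by 2209, 3701 and 2365 probes. It was 0 with each array left out in turn (1731 to 2209 probes at an unadjusted p under 0.05). Under the replicate block the PEA15 change stayed at -0.86 (adjusted p = 0.270). PEA15 passed at -0.71 with quantile normalization alone, -0.70 with the submitters' values, -0.79 with an offset of 50 and -0.86 with a trended prior, and ranged from -0.95 to -0.77 with 1 array left out.

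The alternatives for the contrast between hairpins and for the RNA classes were chosen after seeing the data. The count between hairpins, 594 here, was 1982 with quantile normalization alone, 2010 with the submitters' values, 1717 with an offset of 50, 1899 with a trended prior, 264 with no detection filter, 275 with only the 4 arrays compared and 31 to 275 with 1 array left out. Of 29 list and class medians 14 changed sign under some alternative and 14 moved by over 1.5 times with the same sign, which leaves the ERK outputs' median. Restricting members to those detected on all 4 arrays was also added after seeing the data. Of 113 named genes and probes 3 changed sign: JUN to 0.036 without NS shRNA replicate 2 (range with 1 array left out -0.137 to 0.036), CEMIP to -0.015 without NS shRNA replicate 1 and -0.041 without PEA15 shRNA #1 replicate 2 (-0.041 to 0.084), and TRIB3 to 0.028 without PEA15 shRNA #1 replicate 2 (-0.042 to 0.028). The cause of these changes was not tested. Signal near background limits the genes detected in 1 group only.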

Other observations

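Other RNA groups, chosen after their values were seen, gave the following values. The 13 host genes of small nucleolar RNAs had a median of -0.12 with shRNA #1 against NS shRNA, with 1 gene apart on the higher side and 6 on the lower side, beside 39.0% of H/ACA small nucleolar RNAs apart on the higher side. For all genes these shares were 20.8% on the higher side and 21.7% on the lower side. The host genes' median was -0.027 without shRNA #1 replicate 2 and -0.18 without replicate 1. Of 21 histone genes 7 were higher and 2 lower, with a median of 0.017 that turned to -0.035 with a detection p under 0.01. RN7SL1, the RNA of the signal recognition particle, stood at 13.20 and 13.22 with shRNA #1, against 13.03 and 12.88 with NS shRNA (0.25). RMRP, which takes part in ribosomal RNA processing, stood at 5.74 and 5.78 with shRNA #1, against 6.01 and 6.07 with NS shRNA (-0.28). None of these passed the test over all probes.

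Of 3675 further probes of genes with several tested probes, 2218 (60.4%) differed from NS shRNA in the same direction as the gene's brightest probe. Where the brightest probe had an unadjusted p under 0.01, this held for 75 of 89 (84.3%). Probes of 1 gene share their arrays and can measure different transcripts. Chromosome medians of the difference lay between -0.032 (chromosome 13, 195 genes) and 0.028 (chromosome 19, 780 genes).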
